A study of Caenorhabditis elegans with 7 samples.

Results

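Wnt signaling genes were examined in embryonic A-class motor neurons of *Caenorhabditis elegans*: 5 genes for Wnt ligands (*cwn-1*, *cwn-2*, *egl-20*, *lin-44* and *mom-2*), 4 for Frizzled receptors (*lin-17*, *mig-1*, *cfz-2* and *mom-5*) and the ROR receptor homolog *cam-1*. Every probe set annotated to 1 of these symbols alone was taken, which gave 15 of the 22548 probe sets on the Affymetrix array and 10 of 17118 named genes. The ligands have 1 probe set each and the receptors 2 each. The A-class profile consists of 3 arrays of cells that carry an *unc-4*::GFP transgene, sorted by FACS from embryonic primary cultures after 24 hours, with about 90% GFP-positive cells. The *unc-4* promoter also labels the pharyngeal neuron I5 besides the DA and SAB motor neurons, so the sorted cells are not a single neuron type. The embryonic reference consists of 4 arrays of all viable cells from cultures of the wild-type strain N2, which lack the transgene and include motor neurons themselves. Values are intensities normalized by robust multi-array analysis (RMA) on a linear scale, and replicates are called biological in the labels.

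Wnts are secreted glycoproteins that set polarity along the anterior-posterior axis of the worm, where they guide migrating neuroblasts, axons and the placement of synapses. They bind Frizzled receptors at the cell surface, and the signal passes through Dishevelled to a complex that controls beta-catenin, or through other branches to the cytoskeleton. In the DA9 neuron, an A-class motor neuron of the tail, LIN-44 acting through LIN-17 is known to keep presynaptic sites out of the posterior part of the axon. ROR receptors such as CAM-1 bind Wnts too and can act as receptors or limit the amount of ligand.

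The *unc-4* transcript itself, whose promoter marks the sorted cells, reached intensities of 1155 to 1386 on the 3 A-class arrays, beside 90.1 to 111 on the 4 reference arrays. Of 5 markers of A-class motor neurons, 3 passed the test as higher (*unc-4*, *unc-3* and *unc-17*), and no array of the reference reached the A-class range of any of the 5. Of 39 measured markers of other cell types, none passed as higher and *mec-7*, a touch neuron tubulin, passed as lower. The germline marker *glh-1*, a helicase gene, lay above the reference on all A-class arrays, at 172 to 621 on A-class arrays and 130 to 167 on reference arrays (2.29-fold, limma adjusted p = 0.0586). The germline markers *pgl-1* and *him-3* overlapped between the groups, with log2 fold changes of 0.15 and -0.17. The summed intensity of the 39 markers of other cell types was 4708 to 6305 on A-class arrays and 8605 to 12893 on reference arrays. Bright genes weigh most in such a sum. Of the 39, 16 lay below the reference on all A-class arrays (13.6% of all genes) and 1 above (17.1%). Their median log2 fold change was -0.37, with 10 positive. By cell type the median ran from -0.97 (touch neuron) to 0.15 (germline). To pass, a gene needed a Benjamini-Hochberg adjusted p under 0.01 in limma together with a change of 1.7-fold or more, which 2.2% of all genes did as higher in A-class cells and 3.3% as lower. The deposited values carry no calls of presence. The arrays of each group were all from 1 chip lot, and no hybridization day held both groups, so neither lot nor day can be told apart from cell type.

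Of the 10 ligand and receptor genes, *cwn-1* was higher in A-class cells and none was lower, while 9 did not pass the test. With 1 of 10 higher beside a background of 2.2%, and none lower beside 3.3%, a single gene makes up the whole count. Their median log2 fold change was 0.14, beside 0.05 over all genes. For 5 of the 10 genes the A-class arrays and the reference arrays did not overlap, as was the case for 30.7% of all genes. Those 5 were *cwn-1*, *cwn-2* and *mom-5*, above the reference (17.1% of all genes), and *lin-44* and *cfz-2*, below it (13.6%). Among the 15 probe sets, 1 passed and 6 had groups without overlap, beside 2.2% higher and 31.0% without overlap over all probe sets on the array.

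**Figure D1:**
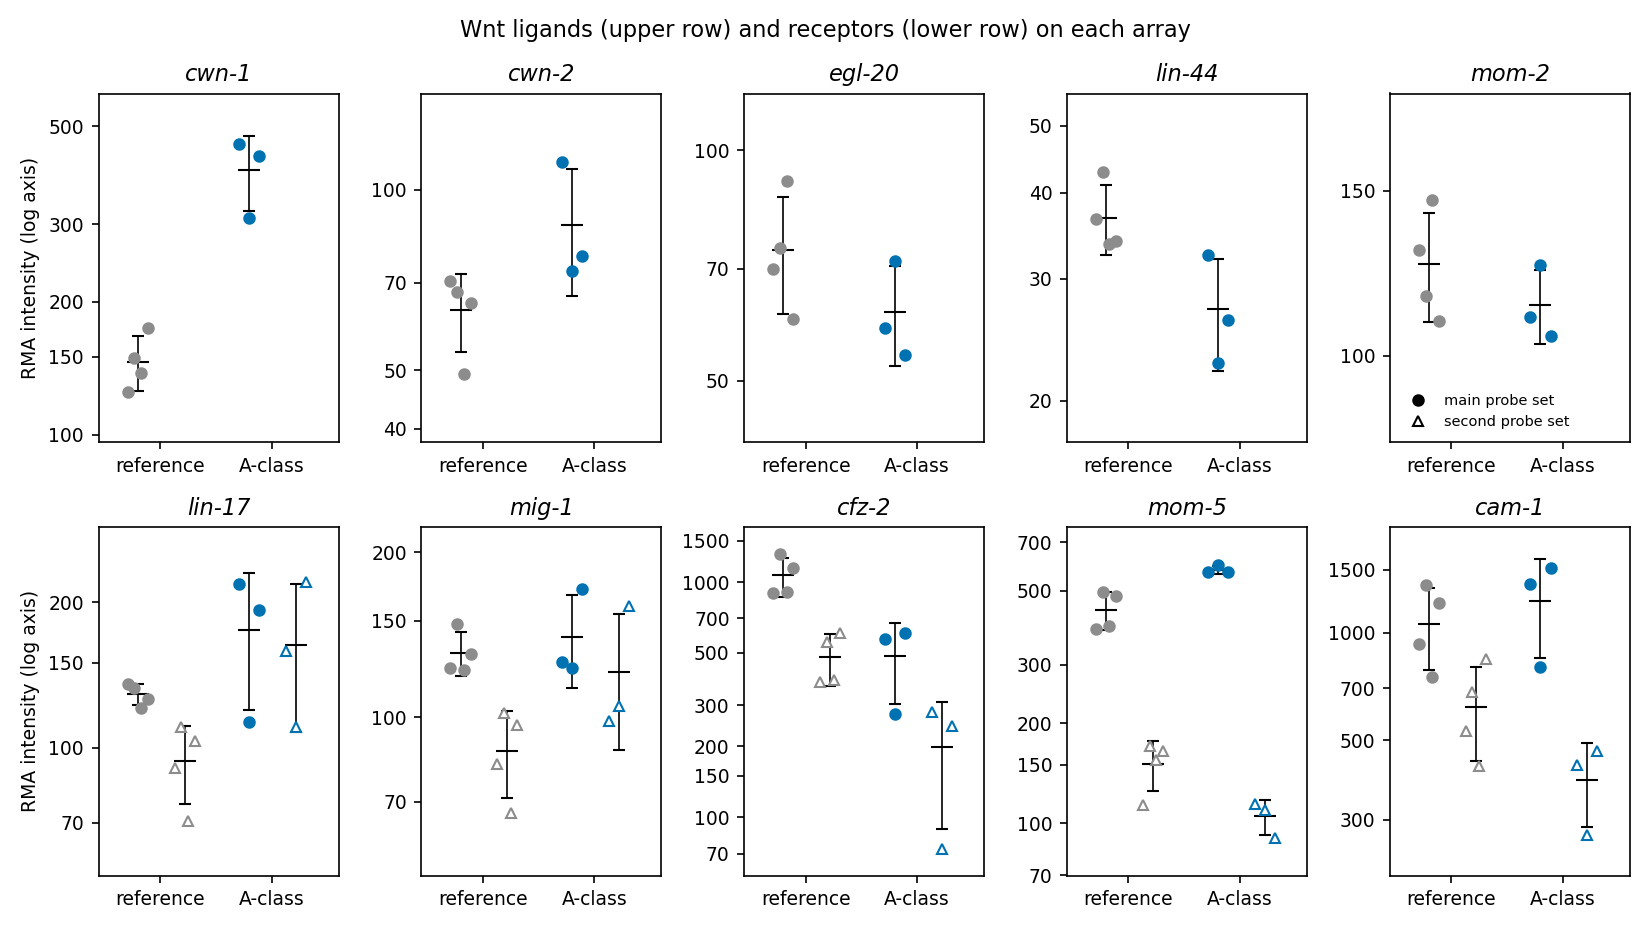
RMA intensity (log axis) of each ligand and receptor on the 4 reference arrays (grey) and the 3 A-class arrays (blue). Circles are the main probe set of a gene, open triangles its second probe set, and bars the mean with 1 SD. The 3 A-class arrays of *cwn-1* sit between 310 and 456, all above the reference arrays at 125 to 174, and those of *cfz-2* sit below all reference arrays on both probe sets.

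The Wnt ligand *cwn-1*, which acts in neuronal migration and axon guidance, had intensities of 456, 310 and 429 on A-class replicates 1, 2 and 3. On reference replicates 1 to 4 it had 125, 149, 138 and 174. The lowest A-class array was thus well above the highest reference array. The A-class mean was 398 ± 77.6 (SD, n = 3) and the reference mean 146 ± 20.9 (SD, n = 4). In limma this was a 2.70-fold difference (log2 1.44, standard error 0.17, 95% interval 1.04 to 1.84, adjusted p = 0.00188). In bulk samples such as these, more cells with the transcript and more transcript per cell cannot be told apart. The 5 body wall muscle markers, a tissue that makes *cwn-1* in the animal, had a summed intensity of 459 to 962 on A-class arrays and 1111 to 1702 on reference arrays, with 0 of 5 passing. Of these, 4 lay below the reference on all A-class arrays, beside 13.6% of all genes. The marker *unc-15* overlapped, at 116 to 549 on A-class arrays and 279 to 490 on reference arrays. *cwn-1* no longer passed without A-class replicate 3 (1.37, adjusted p = 0.0105) or when the fluidics module given in the hybridization records entered as a block (1.41, adjusted p = 0.0182). Within the 2 modules that held both groups it was 1.31 (2 against 2 arrays, limma adjusted p = 0.122) and 1.62 (1 against 1 array, no test). In the fit of 2 against 2 arrays 0 of 17118 genes passed in either direction. The only probe set of *cwn-1* ends in _s_at, a suffix for probes that can match more than 1 transcript.

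The other CWN ligand, *cwn-2*, had 111, 73.4 and 77.5 on the A-class arrays and 70.4, 67.7, 49.4 and 64.7 on the reference arrays. All A-class values were above the reference values, but 2 of them by a small margin. Its log2 fold change of 0.46 did not pass the test (95% interval 0.03 to 0.89, adjusted p = 0.127 from limma). In the animal CWN-2 acts in the placement of the nerve ring and in axon growth.

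The ligand gene *lin-44*, expressed in the tail hypodermis of the animal, had 32.5, 22.6 and 26.2 in A-class cells and 36.6, 42.8, 33.7 and 34.0 in the reference. A-class replicate 1 lay just under the lowest reference array, and the other A-class arrays lay further below. The log2 fold change of -0.45 did not pass (95% interval -0.81 to -0.09, adjusted p = 0.0836 from limma). The probe set was dim in both groups, at the 11.9th percentile of all probe sets by mean intensity in A-class cells and the 24.8th in the reference, and was among the dimmest 30%.

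The second Wnt made in the tail, *egl-20*, which directs migration of the Q neuroblast descendants, had 58.6, 71.6 and 54.1 in A-class cells and 69.99, 74.5, 91.2 and 60.2 in the reference. The groups overlapped, and limma gave -0.26 on the log2 scale (95% interval -0.65 to 0.12, adjusted p = 0.301). The ligand gene *mom-2*, known for its part in endoderm induction in the early embryo, had 110.0, 125 and 105 in A-class cells and 130, 116, 147 and 109 in the reference. These groups overlapped too, at -0.14 (95% interval -0.46 to 0.18, adjusted p = 0.501).

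Of the 5 receptor genes none passed the test in either direction. The Frizzled gene *lin-17*, the receptor for LIN-44 in DA9, had 219, 113 and 193 on A-class replicates 1, 2 and 3 and 135, 133, 121 and 127 on the reference arrays for its main probe set. A-class replicates 1 and 3 were above every reference array, and A-class replicate 2 was below every one. The second probe set of *lin-17* gave 158, 111 and 220 in A-class cells and 91.0, 111, 70.8 and 103 in the reference. Here A-class replicate 2 had the same value as reference replicate 2, the highest reference array, and the other A-class arrays were higher. The log2 fold changes were 0.39 (95% interval -0.11 to 0.88, adjusted p = 0.238 from limma) and 0.76 (95% interval 0.20 to 1.33, adjusted p = 0.0685). Without A-class replicate 2 they were 0.67 (adjusted p = 0.0113) and 1.01 (adjusted p = 0.0254), still outside the limit for a call.

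The Frizzled gene *mig-1*, which takes part in neuroblast migration, had 126, 123 and 171 in A-class cells and 123, 148, 122 and 131 in the reference. Only A-class replicate 3 was above the reference range. The second probe set gave 98.5, 105 and 160 against 82.1, 102, 66.8 and 96.9, with A-class replicate 3 well above the reference and A-class replicate 2 just above it. The log2 fold changes of 0.09 (95% interval -0.26 to 0.43, adjusted p = 0.714 from limma) and 0.46 (95% interval -0.03 to 0.95, adjusted p = 0.164) did not pass.

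The Frizzled gene *cfz-2*, which acts in cell migration and nervous system patterning, had 574, 274 and 610 in A-class cells and 902, 1318, 907 and 1149 in the reference. Every A-class array was below every reference array, and A-class replicate 2 was the lowest by a wide margin. Its second probe set gave 280, 73.4 and 245 against 375, 558, 383 and 609, again with no overlap between the groups. The log2 fold change of the main probe set was -1.20, a reference level 2.30 times that of A-class cells (standard error 0.29, 95% interval -1.86 to -0.55, adjusted p = 0.0242 from limma). For the second it was -1.46 (standard error 0.44, 95% interval -2.47 to -0.45, adjusted p = 0.056). Neither met the adjusted p limit of 0.01. The 5 hypodermis markers had a summed intensity of 1229 to 2359 on A-class arrays and 2880 to 5651 on reference arrays, with 0 of 5 passing. Most of that sum was *sqt-3*, at 838 to 1879 and 2308 to 4806. Of the 5, 4 lay below the reference on all A-class arrays, beside 13.6% of all genes, while *rol-6* overlapped, at log2 0.46. The median log2 fold change of the hypodermis markers was -0.73. Medians of the other cell types besides A-class ran from -0.97 (touch neuron) to 0.15 (germline). The part of the hypodermis markers or of the muscle markers in the values of *cwn-1* and *cfz-2* was not tested. Without A-class replicate 2 the changes of *cfz-2* were -0.83 (adjusted p = 0.0265) and -0.85 (adjusted p = 0.0519). Within the fluidics modules the main probe set gave -1.32 and -1.20.

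The Frizzled gene *mom-5*, receptor for MOM-2 in the early embryo, gave opposite results on its probe sets. The main one had 569, 597 and 570 in A-class cells and 385, 494, 392 and 481 in the reference, with every A-class array above the reference. The second had 114, 110 and 90.6 against 114, 170, 155 and 165, and its A-class arrays were at or below the reference, with A-class replicate 1 just above reference replicate 1. The log2 fold changes were 0.41 (95% interval 0.11 to 0.71, adjusted p = 0.0661 from limma) and -0.51 (95% interval -0.90 to -0.13, adjusted p = 0.0716). The ratio of the main to the second probe set within an array was 4.99, 5.42 and 6.29 in A-class cells and 3.38, 2.90, 2.54 and 2.92 in the reference. Those ratios did not overlap between the groups, so no direction can be given for *mom-5* from these arrays.

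The ROR gene *cam-1*, a receptor tyrosine kinase homolog with a Wnt-binding domain, had 1366, 800 and 1519 in A-class cells and 928, 1357, 751 and 1208 in the reference. A-class replicates 1 and 3 were above every reference array, the first by a small margin, and A-class replicate 2 was close to the lowest reference array. Its second probe set gave 428, 272 and 466 against 532, 681, 423 and 846. There 2 A-class arrays lay within the reference range and A-class replicate 2 below it. The log2 fold changes were 0.20 (95% interval -0.43 to 0.82, adjusted p = 0.64 from limma) and -0.66 (95% interval -1.28 to -0.04, adjusted p = 0.123), so the sign of the *cam-1* difference depends on the probe set. Here the ratio of the main to the second probe set was 3.19, 2.94 and 3.26 against 1.74, 1.99, 1.77 and 1.43, again without overlap. Of the 5 receptor genes 3 had such ratios (the other was *mig-1*), which were counted after the values were seen, beside 38.0% of the 2981 genes with more than 1 probe set.

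**Figure D2:**
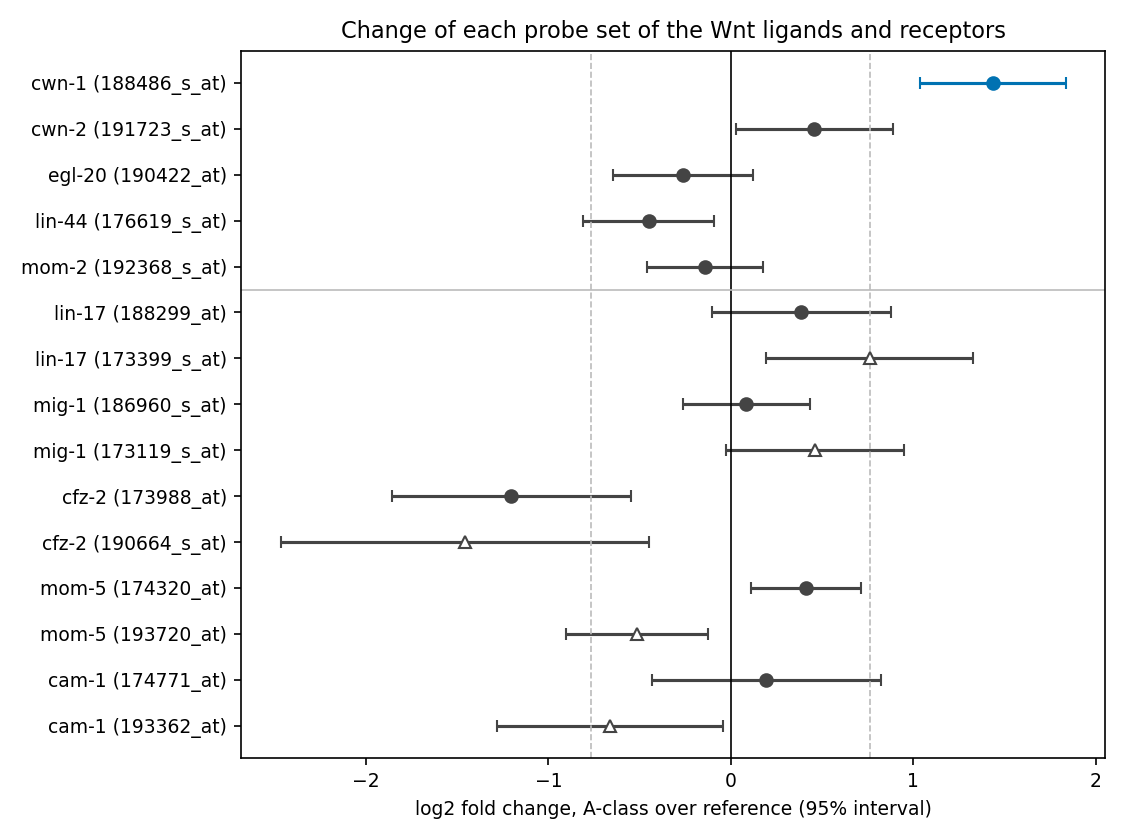
Log2 fold change of A-class over reference with its 95% interval from limma for each of the 15 probe sets, ligands above the grey line and receptors below. Circles are main probe sets, triangles second ones, blue marks the probe set that passed and dashed lines mark 1.7-fold. The interval of *cwn-1* (1.04 to 1.84) lies wholly above that limit, and the probe sets of *mom-5* and of *cam-1* fall on both sides of 0.

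Whether members of a class changed by different amounts was asked from the log2 ratio of 2 genes within each array, for 10 pairs of ligands and 10 pairs of receptors. The change of *cwn-1* exceeded that of *cwn-2* by 0.98, of *mom-2* by 1.57, of *egl-20* by 1.7 and of *lin-44* by 1.88 on the log2 scale, and in all 4 pairs the ratios on A-class arrays were above all those on reference arrays. Among the receptors the change of *mig-1* exceeded that of *cfz-2* by 1.29 and the change of *lin-17* did so by 1.59. The difference of *cfz-2* from *cam-1* was -1.40 and from *mom-5* -1.61, all without overlap. A comparison added after seeing the data used the second probe set of the other receptor. There *cfz-2* differed by -1.96 from *lin-17*, by -1.66 from *mig-1*, by -0.54 from *cam-1* and by -0.69 from *mom-5*. The arrays overlapped for *mom-5* alone. On the main probe sets the only other pair without overlap was *cwn-2* and *lin-44*, at 0.91. Such a pair reaches p = 0.0571 in a two-sided exact permutation test, the smallest this design of 3 against 4 arrays allows, and p = 0.127 after adjustment over the 20 pairs. None of the pairs could therefore pass. For *lin-17* against *mig-1* the difference was 0.30 (exact permutation p = 0.343, adjusted p = 0.457), and the arrays overlapped. The 9 pairs without overlap on the main probe sets share *cwn-1*, *cwn-2* and *cfz-2* and are not separate findings. How often pairs of other genes lie apart was not counted, so these 9 of 20 have no background share. Of single genes, 30.7% had groups without overlap.

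The genes whose pattern over the 7 arrays was most like that of *cwn-1* were *cpd-2* (Pearson r = 0.992), *clec-160* (0.991) and *Y73B3B.3* (0.989). With 2 groups of arrays such values are frequent, and 101 genes had an r above 0.95.

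Of 35 other genes of Wnt signaling, all measured, *mig-14* was lower in A-class cells, none was higher and 34 did not pass, with a median log2 fold change of -0.01. The 1 lower gene of 35 compares with the 3.3% of all genes. The groups did not overlap for 12 of the 35 (6 above the reference and 6 below), beside 30.7% of all genes. The *mig-14* gene encodes Wntless, the membrane protein that carries Wnts to the surface of cells that secrete them. It had 62.7, 31.9 and 44.4 on the A-class arrays and 132, 121, 136 and 157 on the reference arrays, so the highest A-class value was below the lowest reference value by a wide margin. The means were 46.3 ± 15.5 (SD, n = 3) and 137 ± 15.04 (SD, n = 4), the reference being 3.05 times as high (log2 -1.61, standard error 0.22, limma adjusted p = 0.00283). The call of *mig-14* was lost without reference replicate 2 (adjusted p = 0.0109), reference replicate 3 (0.01002) or A-class replicate 3 (0.0144), and in the fit that blocked on fluidics module (-1.61, adjusted p = 0.0223). The values within modules were -1.94 (limma adjusted p = 0.0862) in module 1, where 0 of 17118 genes passed, and -0.95 in module 2, which allowed no test.

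Of the other 7 genes of Wnt secretion none passed with its main probe set. The myotubularin genes *mtm-6* and *mtm-9* and the sorting nexin gene *snx-3*, which act in the recycling of MIG-14, had log2 fold changes of 0.60 (adjusted p = 0.0526 from limma), 0.48 (0.0314) and 0.47 (0.0168). Each had all A-class arrays above the reference, as did 17.1% of all genes. A second *mtm-9* probe set passed, with a log2 fold change of 1.15 (adjusted p = 0.00839). It passed in 1 of the 7 fits with an array left out, the adjusted p of *mtm-9* otherwise being 0.0138 to 0.0341, and not with a block for fluidics module (1.00, adjusted p = 0.0262) or day (1.13, adjusted p = 0.048). The remaining probe set had -0.65 (adjusted p = 0.0722). Without A-class replicate 2, *mtm-6* passed at 0.82 (adjusted p = 0.00782). The retromer genes *vps-26*, *vps-29* and *vps-35* (-0.08, 0.45 and -0.14) and *mom-1*, the Porcupine homolog that acylates Wnts (-0.20), overlapped between the groups on their main probe sets. The second probe sets of *vps-26* (-0.54, adjusted p = 0.0785) and *vps-35* (-0.79, adjusted p = 0.0415) lay below the reference on each A-class array. Over all probe sets 31.0% had groups without overlap.

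Downstream of the receptors no gene passed with any of its probe sets. The Dishevelled genes had log2 fold changes of 0.00 (*dsh-1*, with -0.69, adjusted p = 0.0134, and -0.76 on its other probe sets), -0.82 (*dsh-2*, adjusted p = 0.103 from limma, with -0.16 and overlapping arrays on its second probe set) and 0.31 (*mig-5*). The beta-catenins had 0.43 (*bar-1*), -0.21 (*wrm-1*), -0.31 (*hmp-2*) and -0.86 (*sys-1*, adjusted p = 0.0789), and both *sys-1* probe sets lay below the reference on every A-class array. The 5 genes of the beta-catenin degradation complex (*pry-1*, *axl-1*, *apr-1*, *gsk-3* and *kin-19*) lay between -0.01 and 0.26 on their main probe sets, with second probe sets at 0.28 for *pry-1* and -0.39 for *kin-19*. The 4 genes of the nuclear effector and Nemo branch lay between -0.18 and 0.50 on their main probe sets, with other probe sets of *lit-1* at -0.42 and -0.35. Of the 6 surface proteins with roles beside the Frizzleds, among them the Ryk receptor gene *lin-18* (-0.00), the largest difference was that of the secreted Frizzled-related gene *sfrp-1* (-0.43, adjusted p = 0.0487). Of 5 known targets, among them Hox genes that Wnts control in migrating neuroblasts, *mab-5* had 0.63 (adjusted p = 0.0606) and -0.21 on its 2 probe sets, *lin-39* had -0.15, *egl-5* 0.16, *egl-18* -0.37 and *psa-3* -0.57 (adjusted p = 0.0359). A second, brighter *egl-18* probe set had -0.13 (limma adjusted p = 0.638), with overlapping arrays.

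**Figure D3:**
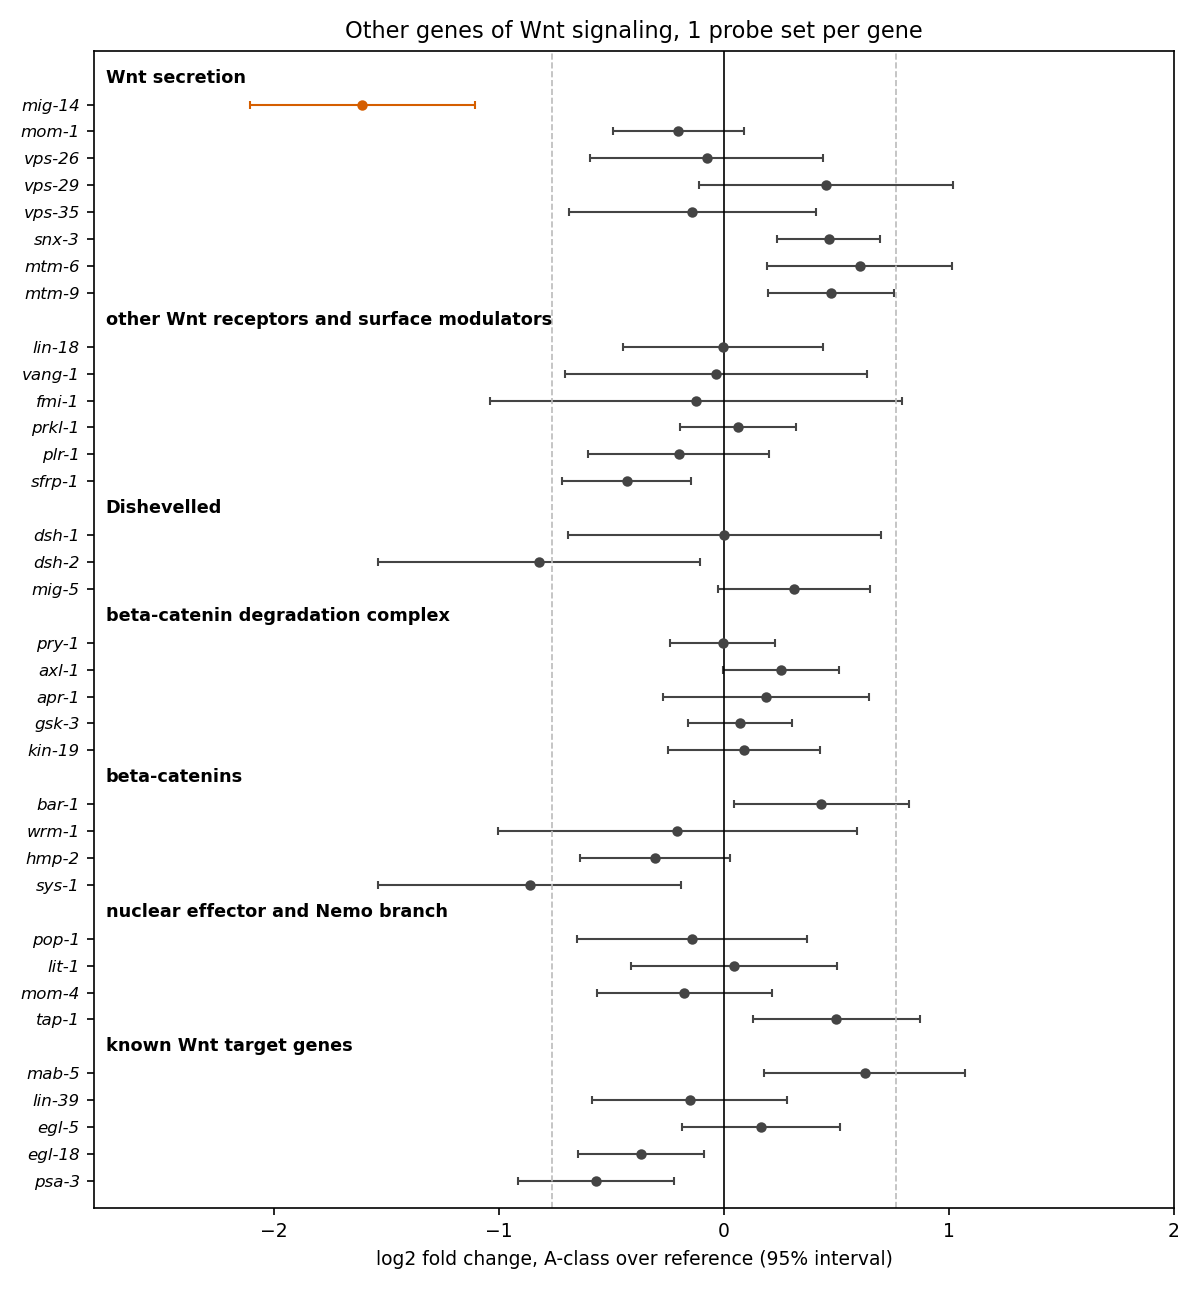
Log2 fold change of A-class over reference with its 95% interval from limma for the main probe set of 35 other genes of Wnt signaling, grouped by step, with dashed lines at 1.7-fold. The gene that passed, *mig-14* at -1.61, is in orange, and the intervals of the degradation complex genes (main probe sets) lie within the dashed lines.

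How far single arrays carry these values was followed by leaving out each array in turn. The log2 fold change of *cwn-1* then ran from 1.33 to 1.61 and that of *cfz-2* from -1.41 to -0.83. For *lin-17* it ran from 0.20 to 0.67 and for *cam-1* from 0.02 to 0.48, where the highest value in each case was that without A-class replicate 2. The values of *mom-5*, *lin-44*, *egl-20*, *mom-2* and *cwn-2* kept their sign in each of these fits, while *mig-1* ran from -0.07 to 0.17.

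**Figure D4:**
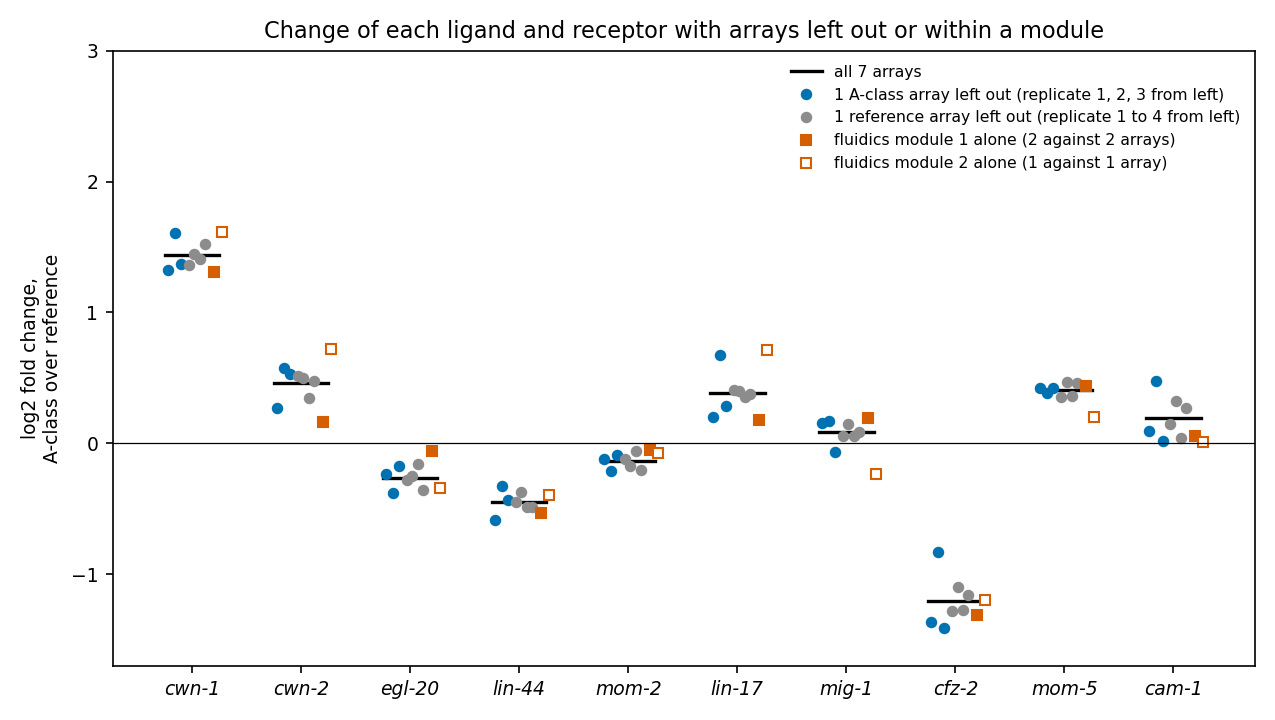
Log2 fold change of each ligand and receptor (main probe set) with all 7 arrays (black line), with 1 array left out (circles) and within a fluidics module (squares). The values of *cwn-1* stay between 1.31 and 1.62 and those of *cfz-2* between -1.41 and -0.83, while without A-class replicate 2 the value of *lin-17* is 0.67.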

How the data were processed

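Total RNA (100 ng per array) from FACS-isolated cells was amplified in 2 rounds, labeled with biotin and hybridized to the Affymetrix *C. elegans* array. The deposited table holds an intensity for each probe set on each array, on a linear scale after RMA by the authors (named in the submitters' processing notes and the study's methods). Which arrays entered RMA together, and its version, is not given in the sources used here. Hybridization records gave chip lot, fluidics module and day. Groups came from the sample titles, and array medians were 66.9 to 70.1. No column was without a sample (0 columns).

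From these values log2 was taken without a pseudocount. A-class and reference were compared on all 7 arrays with limma (version 3.58.1 in R 4.3.3), with Benjamini-Hochberg adjustment over 22548 probe sets. The limits were an adjusted p under 0.01, the false discovery rate that the study's methods state for other profiles, and 1.7-fold. Intervals are limma's 95% intervals. The steps were tested on simulated data. Limma p-values set the difference between the groups against the spread of arrays within them, estimated with the help of all probe sets. The number of arrays limits their precision. They cannot separate cell type from chip lot or day.

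Names came from the platform annotation: 20766 probe sets have 1 symbol, 887 several and 895 none. All 15 probe sets have the same current RefSeq symbol. The main probe set of a gene is its most specific by suffix (_at before _s_at before others), then the brightest. Named are all members, the pathway genes by list and, for a member that passed, the 3 genes with the highest correlation. A few others were named after their values were seen. The members, gene lists and limits were chosen with earlier results of these data known. No coordinates or sequences are given. Other profiles of the study were not analysed here. Alternatives were another variance model, an adjusted p under 0.05, a 1.5-fold limit, a filter on the dimmest 30% of probe sets, quantile normalization, median centering, log2 of the value plus 50, other probe set rules, blocks for replicate number, fluidics module and day, and leaving out each array. Exact tests used scipy 1.17.1, and figures matplotlib 3.10.9 in Python 3.11.15.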

Additional observations from a re-analysis of the deposited data

How the results depend on the processing

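The count of 1 ligand or receptor gene higher was 0 when the fluidics module was blocked on, in fluidics module 1 alone, and when only _at probe sets were allowed, of which *cwn-1* has none. The count of 0 lower was 1 at an adjusted p under 0.05, when *cfz-2* passed. The share of all genes called lower at that limit was not counted. An unadjusted limma p under 0.05, a looser limit without a fold change, was present in 34.4% of all probe sets. With 1 array left out the numbers were 0 to 1 higher and 0 lower, and for the other pathway genes 0 to 1 higher and 0 to 1 lower. Of those genes 1 was higher when any probe set could pass (*mtm-9*), and 0 were lower with the module as a block or on module 1 alone. Over all genes 377 were higher and 565 lower, against 73 and 80 with that block, 141 and 181 with hybridization day as a random block, 187 and 251 on log2 of the value plus 50, 0 and 0 on module 1 alone, and 135 and 172 without reference replicate 2, the fewest with an array left out. The numbers of pairs without overlap were 9 to 13 with 1 array left out, again with no share counted for pairs of other genes.

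Averaged over both probe sets, *mom-5* and *cam-1* reversed to -0.052 and -0.23. The value of *mig-1* reversed to -0.23 on fluidics module 2 alone and to -0.067 without A-class replicate 3, and the highest value with an array left out was 0.172. The cause was not tested. With hybridization day as a random block (consensus correlation 0.43) *cwn-1* and *mig-14* passed, but since no day held both groups this fit cannot separate day from cell type. Chip lot could not be fitted as a block, since each group has 1 lot.

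The labels give the replicate number of an array but no shared culture. Deviations of same-numbered arrays from their group means correlated at 0.03, -0.12 and -0.05, and each A-class array correlated best with a reference array of another number. With the replicate block the numbers of ligands and receptors higher and lower were 0 and 0, of other pathway genes lower 0, of all genes higher 69 and lower 78, and *cwn-1* had 1.52 (adjusted p = 0.0149 from limma).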

Other observations

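A-class replicate 2 was the lowest A-class array for 10 of the 15 ligand and receptor probe sets, and for 35.4% of all probe sets. In the reference, replicate 2 was the highest array for 8 of the 15, and for 16% of all probe sets, and replicate 3 was the lowest for 8 of the 15, and for 24.4% of all probe sets. The probe sets of a gene are not independent, and these shares were not tested.

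The second probe set of *lin-17* had exactly the same deposited value on A-class replicate 2 and reference replicate 2. Such ties between arrays were present in 37% of all probe sets and in 1 of the 15 examined here.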
